A study of Mus musculus with 4 samples.

Results

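The clustered histone genes are the genes of the histone gene clusters, taken here as every gene of the deposited table whose older Ensembl symbol begins with *Hist1h*, *Hist2h*, *Hist3h* or *Hist4h*. The rule uses names only and found 62 of the 39186 genes in the table. By class they were 6 linker histone H1 genes, 16 H2A, 17 H2B, 10 H3 and 13 H4 genes. By position, 54 lay in the *Hist1* cluster on chromosome 13, 4 in *Hist2* on chromosome 3, 3 in *Hist3* on chromosome 11, and *Hist4h4* lay alone on chromosome 6. A further 8 symbols of this form in the GENCODE M21 annotation, among them the germ-cell genes *Hist1h2aa* and *Hist1h2ba*, were not analysed here. All 62 genes had the same coordinates in the table and in GENCODE M21 on the GRCm38 build, which is used throughout.

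RNA was sequenced from sorted LSK cells (Lin−Sca-1+c-Kit+, the fraction of the fetal liver, or FL, that contains hematopoietic stem cells) in 2 *Pich*-KO and 2 *Pich*-WT samples of C57BL/6 mice. *Pich* (*Ercc6l*) is X-linked and encodes a DNA translocase of mitotic ultrafine bridges, and the *Pich*-KO line carries a short TALEN-made deletion in an early exon in all its cells. *Ercc6l* itself had normalized counts of 1142 and 1232 in the *Pich*-KO and 772 and 661 in the *Pich*-WT samples, a log2 fold change of 0.73 (limma adjusted p = 0.00887). Reads were counted over the whole gene and not over the deleted bases, so this value does not check the labels. The study's methods take FL cells at embryonic day 14.5, and the labels give no age for these samples. Nothing says whether a sample was 1 embryo or a pool. The p-values therefore measure only the spread between these samples, which for the *Pich*-KO samples may be technical.

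The libraries held 14703215 to 20933919 reads on genes. The Y-linked genes *Ddx3y*, *Eif2s3y*, *Kdm5d* and *Uty* had 0 reads in *Pich*-WT sample 2 and were read in the other samples. *Xist*, the RNA gene of X inactivation, had normalized counts of 9.38 and 699 in *Pich*-WT samples 1 and 2. In *Pich*-KO samples 1 and 2 it had 14.2 and 4.55. The 2 *Pich*-WT samples thus differed in sex and came from different animals. Sex was not balanced between the groups, and its part in their differences was not tested. All 9 LSK marker genes were read, with *Kit* at normalized counts of 4447 and 2772 in the *Pich*-KO and 2328 and 2513 in the *Pich*-WT samples, and limma called 1 higher (*Ly6a*, the Sca-1 gene of the sort, by 1.74 on the log2 scale) and 4 lower. Values are normalized counts, that is, reads on a gene divided by the size factor of the sample, and log2 fold changes are *Pich*-KO minus *Pich*-WT on the log2(normalized count + 1) scale from limma with Benjamini-Hochberg adjustment over the 32428 genes tested.

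Core histones H2A, H2B, H3 and H4 form the protein spool of the nucleosome, and linker histone H1 binds the DNA where it enters and leaves. The clustered genes are replication-dependent: they are switched on in S phase, many without introns and in many near-identical copies, so that histone protein is made with new DNA. Their mRNAs are as a rule not polyadenylated but are cut behind a short 3′ stem-loop that the stem-loop binding protein SLBP holds, although some histone genes also give longer, polyadenylated transcripts in cells that leave the cell cycle.

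The stem-loop is shown because it is the element that sets these mRNAs apart and because neither the labels nor the methods say whether poly(A) RNA was selected for these libraries. A match was a stem of 6 base pairs opening with GG around a loop of 4 bases, searched on the sense strand of the GENCODE M21 transcripts. The pattern was modelled on histone mRNAs. After GG the 5′ side of the stem was limited to C or T and ended in T. All loop bases but the last were C or T. Stem-loops of other forms were not counted, so the shares given here hold for this pattern only. It was found in 43 of the 62 genes, against 0.073% of 58724 protein-coding transcripts of other genes. In all 44 matching transcripts it began 21 to 54 bases after the stop codon (median 31). There were 8 distinct sequences, and the 5 carried by more than 1 gene are given 5′ to 3′ as DNA, with the stem in capitals and the loop in lower case.
In 23 genes of the H1, H2A, H2B and H3 classes, *Hist1h1c*, *Hist1h2ae*, *Hist3h2a*, *Hist3h2ba*, *Hist1h3d* and *Hist2h3c2* among them: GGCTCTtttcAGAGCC
In 6 genes of the H1, H2B and H3 classes, *Hist1h3e* and *Hist1h1t* among them: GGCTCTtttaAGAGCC
In 7 H4 genes, *Hist1h4d* and *Hist4h4* among them: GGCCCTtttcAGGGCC
In 2 H4 genes, *Hist1h4i* and *Hist2h4*: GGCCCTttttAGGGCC
In 2 H4 genes, *Hist1h4b* and *Hist1h4j*: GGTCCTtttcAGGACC
The H4 stems differed from those of the other classes in the inner pairs, and no H4 stem was found in a gene of another class. Of the 19 genes without a match, 3 had no coding model and 11 were annotated to at most 2 bases past the stop codon, short of the 21 bases at which the nearest stem-loop began. The other 5 were *Hist1h1a*, *Hist1h2bc*, *Hist1h2bq*, *Hist1h2br* and *Hist2h2be*. A poly(A) signal in the last 50 bases of a transcript, searched on the sense strand as AATAAA and as its common variant with T at the second base, was present in 16 of the 62 genes (25.8%) and in 50.2% of the other protein-coding transcripts. The first share counts genes with a signal in any of their transcripts and the second counts single transcripts. For the 11 genes annotated to at most 2 bases past the stop codon, nearly all of the last 50 bases were coding. The 2 shares are therefore not directly comparable.

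Reads were counted on nearly all the clustered genes. Many have near-identical copies, between which reads can be shared out wrongly. A count over 3 therefore does not show that a gene's own transcripts were present. *Hist1h2bq* had 9 to 13 reads and *Hist1h2br* 4 to 11, while 97.3% and 88.7% of their 50-base words also occur in transcripts of other genes. Over 3 reads were counted in every sample for 57 genes, in some samples for 3 genes and in no sample for 2 genes. The germ-cell linker histone gene *Hist1h1t* had 0 and 1 reads in *Pich*-KO (samples 1 and 2, in that order) against 2 and 4 in *Pich*-WT. The H2A gene *Hist1h2af* had 4 and 4 against 5 and 1 reads in the same order, and the pseudogene *Hist1h2aj* 7 and 8 against 3 and 18. *Hist1h2al*, an H2A pseudogene, had 0 and 0 against 2 and 0 reads, and the H4 gene *Hist1h4b* had 0 and 1 against 0 and 1. These last 2 genes fell below the minimum mean normalized count of 1, which left 60 clustered genes to test. For the genes at or under 3 reads a difference between the groups was not detectable at this depth.

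Together the clustered genes took a small share of each library, 0.0747% and 0.116% of the *Pich*-KO reads (samples 1 and 2) against 0.0837% and 0.0832% of the *Pich*-WT reads. Small structural RNAs that carry no poly(A) tail were also low. The 7SK RNA *Rn7sk*, an abundant RNA polymerase III transcript, had normalized counts of 33.8 and 42.1 in the *Pich*-KO and 35.9 and 51.0 in the *Pich*-WT samples, and none of the 8 such RNAs tested (of 16 listed, the rest at lower counts or not analysed here) passed the limma test (0 of 8 also at an unadjusted p of 0.05). How far the counts of each histone gene depend on poly(A) tails was not tested.

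Per kilobase of exon, the mean normalized count over the 4 samples ran from 1.15 to 9414 among the 62 genes, with a median of 99.2. The H2A gene *Hist1h2ao* was highest at 9414 per kilobase, followed by the H2A gene *Hist1h2ap* at 1443, the H2B gene *Hist1h2bg* at 1004, *Hist1h1c* at 961, the H2B gene *Hist1h2bc* at 830 and *Hist1h2ae* at 780. Copies of 1 class are so alike that reads can be shared out wrongly between them. Of the 50-base words of *Hist1h2ao*, 93.5% also occur in transcripts of other genes, and the median over the 62 genes was 49.6%. The H2A genes were the most alike, with a median of 73.2%, and the H1 genes the least, with 1.13%. It was 57.2% for the H3, 44.1% for the H2B and 39.5% for the H4 genes. Levels of single core histone genes that share many words are therefore uncertain.

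**Figure D1:**
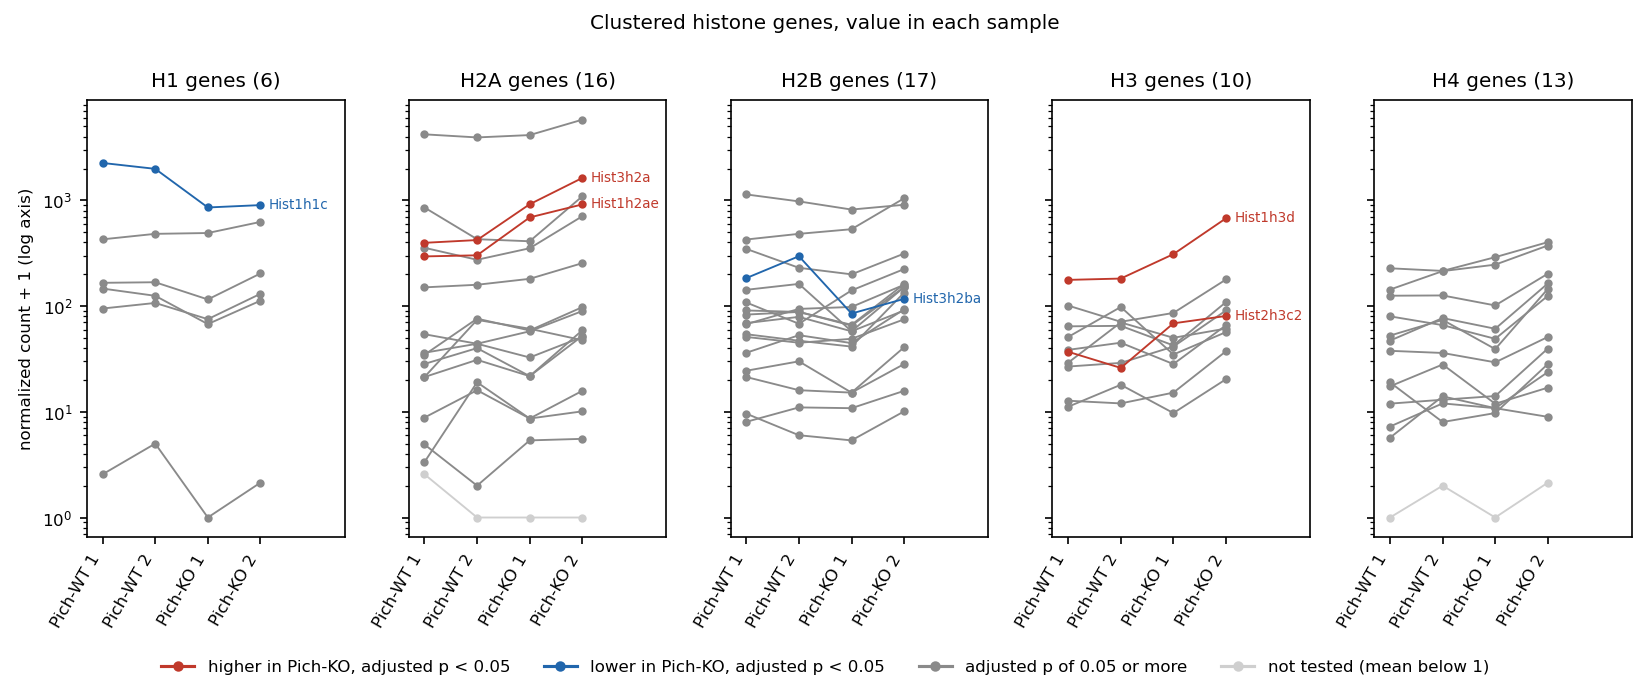
Normalized count + 1 (log axis) of the 62 clustered histone genes in the 2 Pich-WT and 2 Pich-KO samples, by class, with a line joining the values of each gene and colours for the limma call. Hist1h1c stood at 2255 and 1984 in the Pich-WT and at 855 and 900 in the Pich-KO samples, and most other lines ended higher in Pich-KO sample 2 than in Pich-KO sample 1.

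Of the 60 genes tested, 4 were higher and 2 were lower in *Pich*-KO LSK cells at an adjusted p under 0.05. That is 6.67% and 3.33% of them, beside 7.58% of all genes tested that were higher and 9.6% that were lower, so calls were no more frequent than in the background. Both *Pich*-KO samples lay above both *Pich*-WT samples for 16 clustered genes (26.7%, beside 28.9% of all genes tested) and below them for 6 (beside 27.2%). The median log2 fold change was 0.28 for the clustered genes and 0.02 for all genes tested. In bulk RNA, fewer cells of a type and less RNA per cell cannot be told apart. Without *Pich*-KO sample 2, *Pich*-WT sample 1 or *Pich*-WT sample 2, limma called 0 genes in the whole table, with 7572, 6062 and 5716 genes at an unadjusted p under 0.05, and without *Pich*-KO sample 1 it called 3 clustered genes higher (5% of 60, beside 1.7% of all genes) and 1 lower (1.67%, beside 3.7%). Without a trend of the prior variance limma also called 0 genes in the table, with 7377 at an unadjusted p under 0.05. With edgeR, 6 of 54 clustered genes tested were higher (11.1%, beside 18.6% of all genes) and 2 lower (3.7%, beside 20.7%). With DESeq2, 9 of the 51 that had an adjusted p were higher (17.6%, beside 17.6% of all genes) and 2 lower (3.92%, beside 21.4%).

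Of the 6 linker histone genes 1 passed the test, with a fall, and 5 had a log2 fold change below 0. *Hist1h1c*, which encodes the somatic linker histone H1.2, had normalized counts of 855 and 900 in the *Pich*-KO and 2255 and 1984 in the *Pich*-WT samples. The groups did not overlap, and the log2 fold change was −1.27 (standard error 0.12, limma adjusted p = 0.000385). With each sample left out in turn it stayed between −1.36 and −1.18. *Hist1h1e*, which encodes H1.4 and was the next highest H1 gene, had 490 and 624 in the *Pich*-KO and 427 and 481 in the *Pich*-WT samples. Its *Pich*-KO values were both the higher, but its log2 fold change of 0.29 (standard error 0.18) did not pass the test (limma adjusted p = 0.349). Within a sample, a ratio of 2 genes does not depend on the scaling between samples. The count of *Hist1h1c* was 1.75 and 1.44 times that of *Hist1h1e* in *Pich*-KO, against 5.29 and 4.12 times in *Pich*-WT. *Hist1h1b*, the H1.5 gene, had a log2 fold change of −0.63, and *Hist1h1a* and *Hist1h1d* of −0.02 and −0.12, none past the test. Of the 50-base words of *Hist1h1c*, 8.54% are shared with other genes. For *Hist1h1e* it was 32.0%, and *Hist1h1e* overlaps *Hist1h2be* on the same strand, so its counts are less certain. *Hist1h1c* (ENSMUSG00000036181) lies on the plus strand of chromosome 13, from 23738808 to 23740367.

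H2A genes held the calls with the largest rise. *Hist3h2a* (ENSMUSG00000078851), the H2A gene of the small *Hist3* cluster, had normalized counts of 917 and 1627 in the *Pich*-KO and 395 and 420 in the *Pich*-WT samples. The *Pich*-KO samples were both above the *Pich*-WT samples and also far from each other, and the log2 fold change was 1.58 (standard error 0.25, limma adjusted p = 0.00365). *Hist3h2a* spans chr11:58954685-58956830 on the plus strand and overlaps *Trim17*, which had normalized counts of 3.13 to 7.96. *Hist1h2ae* (ENSMUSG00000069272) had 688 and 914 in the *Pich*-KO and 294 and 301 in the *Pich*-WT samples. Its groups did not overlap either, at a log2 fold change of 1.41 (standard error 0.18, limma adjusted p = 0.00137). *Hist1h2ao*, the most abundant clustered gene, had 4141 and 5791 against 4209 and 3934. *Pich*-KO sample 1 lay between the *Pich*-WT samples, and the log2 fold change of 0.27 (standard error 0.15) did not pass the test (limma adjusted p = 0.299). The log2 fold change was above 0 for 13 of the 15 H2A genes tested, with a median of 0.47.

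Among the 17 H2B genes only *Hist3h2ba* passed the test, and it was lower. It (ENSMUSG00000056895) had normalized counts of 84.0 and 116 in the *Pich*-KO and 183 and 295 in the *Pich*-WT samples. The groups did not overlap, and the log2 fold change was −1.23 (standard error 0.30, limma adjusted p = 0.025). *Hist1h2bc* had 817 and 907 against 1136 and 976, both *Pich*-KO samples being lower. Its log2 fold change of −0.29 (standard error 0.14) did not pass (limma adjusted p = 0.226). *Hist1h2bg* had 532 and 1045 against 425 and 481, or 0.72 on the log2 scale (standard error 0.29). This passed with DESeq2 (adjusted p = 0.0125) but not with limma (adjusted p = 0.142). *Hist2h2be*, the *Hist2* gene with the highest normalized count (per kilobase *Hist2h2ac* was higher, at 116 against 104), had 199 and 313 against 346 and 229, so that its groups overlapped, with a log2 fold change of −0.18 and a limma adjusted p of 0.755. The log2 fold changes of the H2B genes ran from −1.23 to 1.05 with a median of 0.17, 10 positive and 7 negative.

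Of the 10 H3 genes 2 rose. *Hist1h3d* (ENSMUSG00000099583) had normalized counts of 309 and 675 in the *Pich*-KO and 176 and 181 in the *Pich*-WT samples, with a log2 fold change of 1.35 (standard error 0.33, limma adjusted p = 0.0273). *Hist2h3c2* (ENSMUSG00000081058) had 67.6 and 79.6 against 35.9 and 25, with a log2 fold change of 1.26 (standard error 0.34, limma adjusted p = 0.0392), and 63.5% of its 50-base words are shared with other genes. The groups did not overlap for either gene, but *Pich*-KO sample 2 was far above sample 1 for *Hist1h3d* and close to it for *Hist2h3c2*. The log2 fold change of *Hist1h3d* was 0.79 without *Pich*-KO sample 2 and 1.91 without *Pich*-KO sample 1. Both calls, and that of *Hist3h2ba*, were lost with a pseudocount of 0.1 (adjusted p of 0.0655, 0.0532 and 0.0514) and without the filter on the mean (0.0917, 0.0682 and 0.071). *Hist1h3e* had 85.1 and 177 against 100 and 70.0, and its groups overlapped.

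None of the 12 H4 genes tested was called by limma, although 11 of the 12 had a positive log2 fold change, with a median of 0.35. *Hist1h4i*, the H4 gene with the highest level per kilobase, had normalized counts of 289 and 401 in the *Pich*-KO and 227 and 214 in the *Pich*-WT samples. Its log2 fold change was 0.63 (standard error 0.21, limma adjusted p = 0.089), and edgeR and DESeq2 put it just past the threshold, at adjusted p of 0.0477 and 0.0427. *Hist1h4d* had 245 and 373 against 142 and 213, with a log2 fold change of 0.79 (standard error 0.28, limma adjusted p = 0.1), past the threshold with DESeq2 (adjusted p = 0.0294). For both genes the *Pich*-KO samples lay above the *Pich*-WT samples. *Hist4h4*, the isolated H4 gene of chromosome 6, had 100.3 and 201.2 against 124 and 125, so that the *Pich*-WT samples lay between the *Pich*-KO samples.

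**Figure D2:**
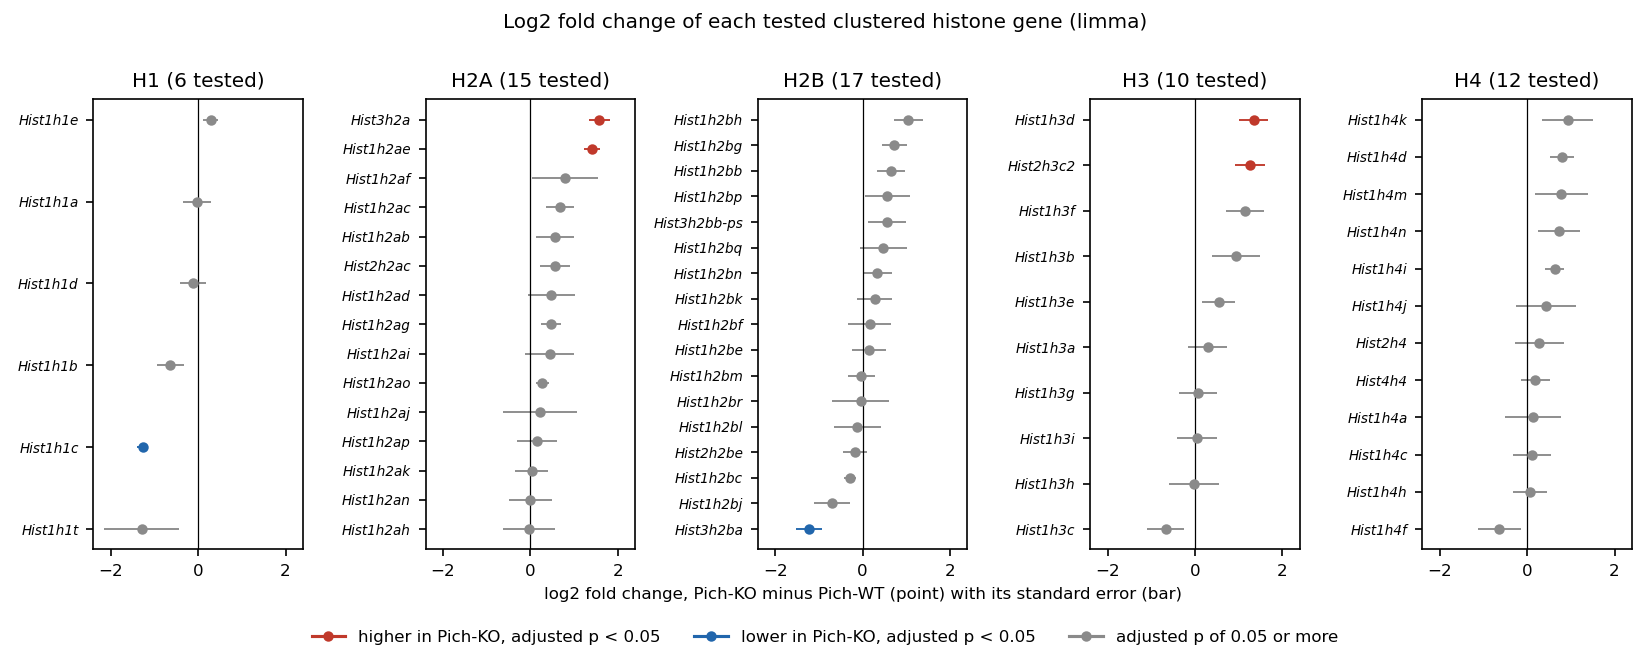
Log2 fold change (Pich-KO minus Pich-WT, points) with its standard error (bars) from limma for the 60 tested clustered histone genes, by class and in order of size. The 4 called rises, between 1.26 and 1.58, were H2A and H3 genes, and the 2 called falls, Hist1h1c at −1.27 and Hist3h2ba at −1.23, were an H1 and an H2B gene.

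*Hist3h2a* and *Hist3h2ba*, both of the *Hist3* cluster, moved in opposite directions. The call of *Hist3h2ba* was lost with a pseudocount of 0.1 (limma adjusted p = 0.0514) and without the filter on the mean (limma adjusted p = 0.071). *Hist3h2ba* ends 5151 bases before the start of *Hist3h2a*, on the same strand of chromosome 11. The ratio of *Hist3h2a* to *Hist3h2ba*, which no scaling between samples changes, was 10.9 and 14.0 in *Pich*-KO against 2.16 and 1.42 in *Pich*-WT. The H2B pseudogene *Hist3h2bb-ps* lies between them, on the other strand just 172 bases from the start of *Hist3h2a*. It had 43.6 and 92.1 against 35.2 and 52.0, with a log2 fold change of 0.56 that did not pass (limma adjusted p = 0.462).

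Many H2A and H2B genes stand head to head and share the DNA between their starts. There were 13 such pairs with starts at most 500 bases apart, all of an H2A and an H2B gene or pseudogene. None had both members called in the main limma fit. With DESeq2, *Hist1h2ae* and *Hist1h2bg* were both called higher (adjusted p = 1.93e-09 and 0.0125). *Hist1h2ae* rose by 1.41 on the log2 scale while its partner *Hist1h2bg*, 175 bases away, had 0.72. The difference within the pair was 0.69 and was not tested. The within-sample ratio of the 2 genes was 1.29 and 0.875 in *Pich*-KO against 0.691 and 0.626 in *Pich*-WT. The values within a pair lay 0.19 to 1.18 apart on the log2 scale, farthest for *Hist1h2ag* at 0.47 and *Hist1h2bj* at −0.70.

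The promoters of 4 of the 6 called genes are shown. *Hist1h2ae* and *Hist1h2bg* share theirs, and only the first was called in the main limma fit. *Hist3h2a* and *Hist3h2ba* lie in the same cluster, with a pseudogene between them, and moved in opposite directions. *Hist1h1c* is the H1 gene that fell. Those of the called H3 genes *Hist1h3d* and *Hist2h3c2* are not printed. The windows are from RefSeq on GRCm38.p6, 5′ to 3′ on the plus strand, with 3 motifs in capitals wherever they occur on either strand. The first is CCAAT, which the factor NF-Y binds in many promoters. The second is the TATA box, which places the start of transcription and was searched as TATAAA. The third is the octamer of the OCT factors, known from H2B promoters, searched as ATTTGCAT.
Between the starts of *Hist1h2ae* (minus strand) and *Hist1h2bg* (plus strand), chr13:23571221-23571399: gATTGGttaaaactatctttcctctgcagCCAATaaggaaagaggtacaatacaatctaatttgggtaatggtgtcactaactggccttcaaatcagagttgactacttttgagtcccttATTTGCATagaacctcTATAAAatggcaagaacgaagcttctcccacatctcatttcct
Upstream of *Hist1h1c*, chr13:23738657-23738806: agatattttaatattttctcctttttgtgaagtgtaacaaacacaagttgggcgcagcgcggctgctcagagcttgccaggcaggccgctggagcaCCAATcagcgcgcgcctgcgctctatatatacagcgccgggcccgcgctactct
Upstream of *Hist3h2a*, chr11:58954535-58954684: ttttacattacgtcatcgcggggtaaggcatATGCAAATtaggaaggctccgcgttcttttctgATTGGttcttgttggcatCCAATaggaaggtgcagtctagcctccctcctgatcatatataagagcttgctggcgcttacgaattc
Upstream of *Hist3h2ba*, chr11:58948761-58948910: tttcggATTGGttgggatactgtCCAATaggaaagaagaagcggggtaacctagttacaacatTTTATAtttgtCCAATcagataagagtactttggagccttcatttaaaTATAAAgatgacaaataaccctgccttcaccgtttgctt
RefSeq windows of 250 bases before to 50 after the start were matched for 54 of the 62 genes, and in none did 2 of the motifs share bases. CCAAT stood in 45 of the 54 (83.3%) against 37.4% of 32544 windows of all genes. All H1, H2A, H2B and H3 windows held it and 3 of 12 H4 windows did. The TATA box letters stood in 31 of the 54, or 57.4% against 13.6%. The octamer stood in 10, or 18.5% against 1.75%, and these were 6 of 14 H2A, 4 of 14 H2B, 0 of 6 H1, 0 of 8 H3 and 0 of 12 H4 windows.

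The values of *Pich*-KO samples 1 and 2 differed for nearly every clustered gene. *Pich*-KO sample 2 was above *Pich*-KO sample 1 for 58 of the 60 genes (96.7%, beside 50.4% of all genes tested), and it was the highest of the 4 samples for 46 (76.7%, beside 28.9%). The median log2 difference, sample 2 minus sample 1, was 0.82 for the clustered genes and 0.01 for all genes tested. Between the *Pich*-WT samples it was −0.10, sample 1 minus sample 2, with sample 1 higher for 22 of 60 genes. The direction of the group as a whole rested on this sample: the median log2 fold change was −0.26 without *Pich*-KO sample 2 and 0.73 without *Pich*-KO sample 1. No 2 samples of a group had counts that agree within sampling noise, so each was counted as its own sample. This does not show whether the *Pich*-KO samples came from different embryos.

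In the sums by class, *Pich*-KO sample 2 was above *Pich*-KO sample 1 for H1 and for all 4 core histones. H2A genes summed to 6954 and 10800 in the *Pich*-KO and 6462 and 5851 in the *Pich*-WT samples, with *Hist1h2ao* giving most of the sum. H3 genes summed to 676 and 1366 against 538 and 606, and H4 genes to 862 and 1570 against 763 and 872, so that *Pich*-KO sample 1 lay just above the *Pich*-WT sums for H3 and within them for H4. H2B genes summed to 2286 and 3701 against 2843 and 2755, and the *Pich*-KO samples lay on either side of the *Pich*-WT samples. H1 genes alone were lower in both *Pich*-KO samples, at 1600 and 1969 against 3088 and 2866. Without *Hist1h1c* the H1 sums were 745 and 1069 against 832 and 882, and overlapped. Without *Pich*-KO sample 2 the log2 fold change of the sum over all classes went from 0.25 to −0.11 and that of H2B from 0.10 to −0.29, while those of H2A, H3 and H4 stayed positive at 0.18, 0.24 and 0.08. With 2 samples a group no exact permutation test of such a sum can give a p below 0.333.

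Other RNA classes moved with *Pich*-KO sample 2 as well. Scaled to the reads on genes of each library (CPM), small nucleolar RNA genes had 73.1 and 112 in *Pich*-KO against 43.4 and 52.5 in *Pich*-WT. The mitochondrial rRNA genes had 379 and 663 against 303 and 399 CPM, and Cajal body RNA (scaRNA) genes 2.57 and 5.78 against 1.82 and 2.31 CPM. Spliceosomal snRNA genes differed less, at 46.3 and 56.0 against 52.8 and 48.7, and nuclear rRNA genes had 174 and 166 against 62.5 and 87.9. The part of RNA selection or library preparation in the histone values of *Pich*-KO sample 2 was not tested. For S phase genes the median log2 difference between *Pich*-KO samples 2 and 1 was 0.09 over 19 genes. Most of these act in DNA replication and nucleotide supply, and *Ccne1*, *Ccne2*, *E2f1* and *Uhrf1* were also on the list. Cell type markers also differed between these samples. All 9 LSK markers were lower in *Pich*-KO sample 2 than in sample 1, by a median of −0.67 on the log2 scale, and so were all 4 endothelial markers (−0.98), while the 4 lymphoid markers summed to 153 in sample 1 and 363 in sample 2. Their part in the histone values of *Pich*-KO sample 2 was not tested.

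**Figure D3:**
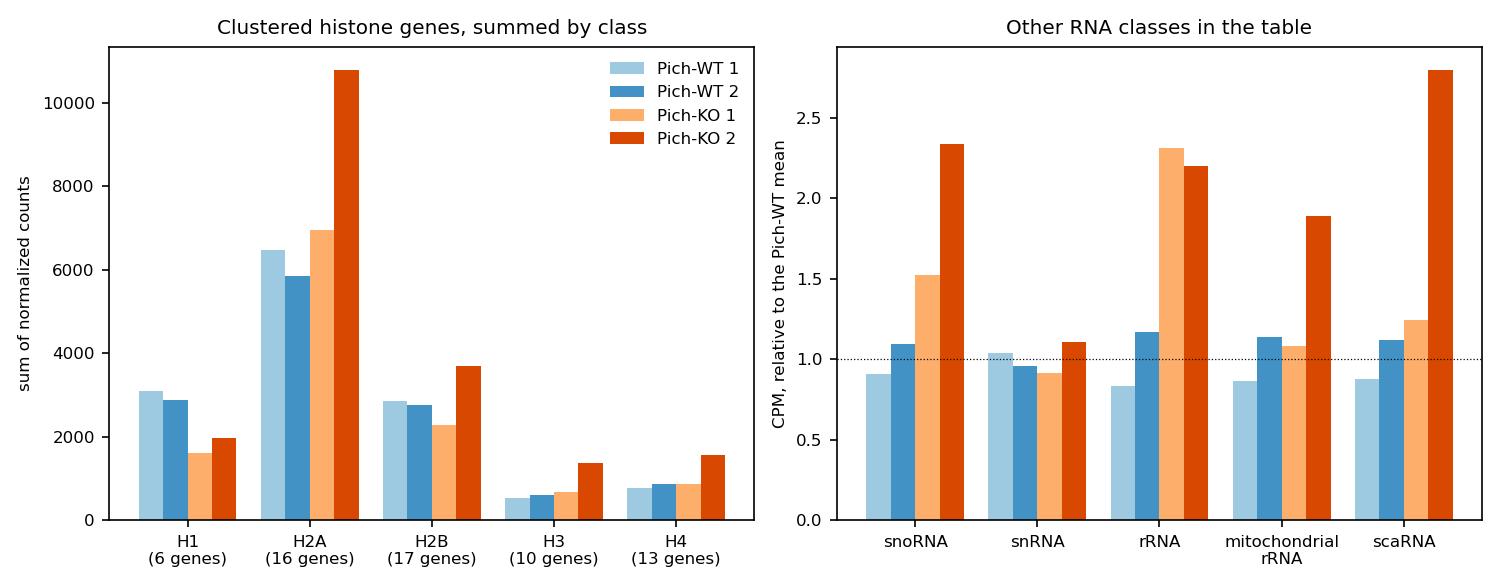
Left, sum of normalized counts of the clustered histone genes by class in each sample. Right, CPM of other RNA classes relative to the mean of the Pich-WT samples (dotted line at 1). Pich-KO sample 2 had the highest bar for H2A, H2B, H3 and H4 and for snoRNA, snRNA, mitochondrial rRNA and scaRNA, but not for nuclear rRNA. H1 was lower in both Pich-KO samples.

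The 6 calls fell on genes whose annotated transcripts run well past the stem-loop. Of the 22 tested genes with a transcript annotated more than 100 bases past it, 4 were higher and 2 lower. Of the 20 genes annotated to at most 100 bases past it, and of the 18 with no stem-loop found, limma called 0. An unadjusted p under 0.05 was found for 11 clustered genes, 18.3% of the 60 beside 28.7% of all genes tested, and all 11 were among the 22. The medians of the log2 fold change in these 3 sets were 0.49, 0.29 and 0.02. The boundary of 100 bases was chosen after the values had been seen, and the difference between the groups was not tested. The 22 genes were also read more deeply, with a median normalized count of 149.9 against 66.9 and 37.3, and were less alike, with a median of 23.3% of 50-base words shared with other genes against 59.4% and 85.8%. The annotation runs 840 bases past the stem-loop for *Hist1h1c*, 1643 for *Hist3h2a*, 752 for *Hist1h3d*, 377 for *Hist2h3c2*, 169 for *Hist3h2ba* and 151 for *Hist1h2ae*. *Hist1h1c*, *Hist3h2a*, *Hist3h2ba* and *Hist1h2ae* also held a poly(A) signal in the last 50 bases. Whether the reads came from stem-loop or from polyadenylated transcripts cannot be told apart from gene counts.

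**Figure D4:**
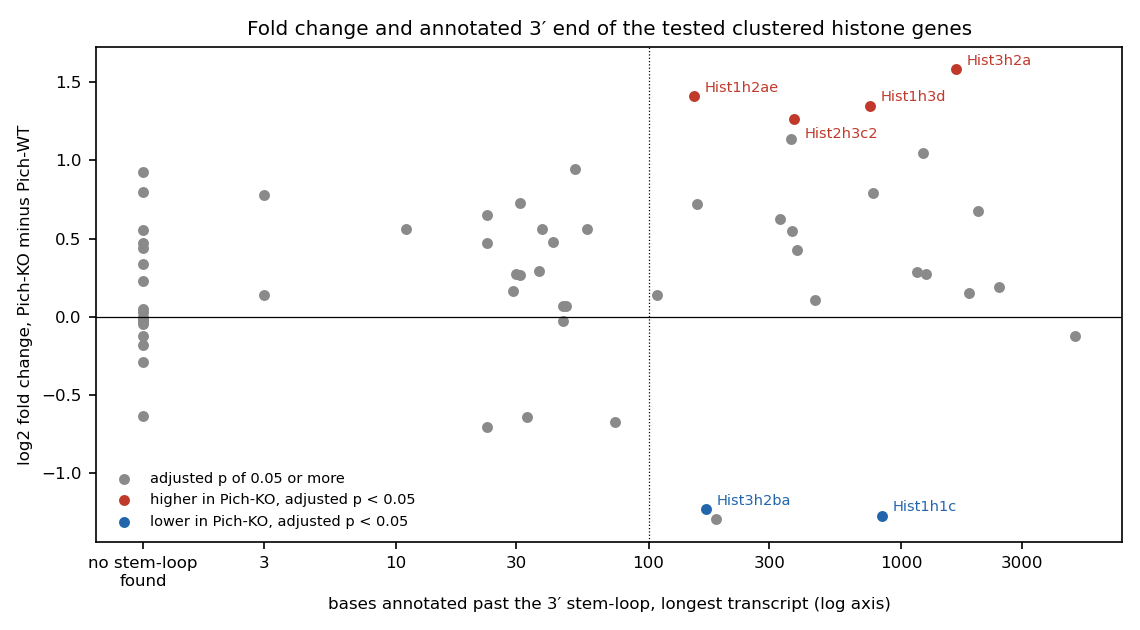
Log2 fold change (Pich-KO minus Pich-WT) of the 60 tested clustered histone genes against the bases annotated past the 3′ stem-loop in the longest transcript (log axis), with genes in which no stem-loop was found at the left. All 6 called genes lie right of the dotted line at 100 bases, between 151 and 1643 bases.

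Genes of the histone pathway outside the clusters were counted for comparison. Over all genes tested, 7.58% were higher and 9.6% lower. Most of the listed genes were read deeply. In a separate limma fit of the 13924 genes with at least 10 reads in every sample, 2937 were higher and 3135 lower. Of 12 variant histone genes tested, which lie outside the clusters and are mostly expressed through the whole cell cycle, 2 were higher and 4 lower. The H3.3 gene *H3f3b*, the most abundant, rose by 0.35 on the log2 scale (limma adjusted p = 0.00833), while *H3f3a*, the other H3.3 gene, named after its values were seen, was lower at −0.36 (adjusted p = 0.0203). The macroH2A gene *H2afy* rose by 0.40 (limma adjusted p = 0.0112), and the linker histone gene *H1fx* fell, from 80.5 and 43.0 to 2.18 and 2.27 (limma adjusted p = 0.00126). *H1fx* had 103 and 43 reads in the *Pich*-WT samples and 2 in each *Pich*-KO sample, at the floor of at most 3 reads. The size of its fall is therefore uncertain. The linker histone gene *H1f0*, named after its values were seen, had 2294 and 1927 in the *Pich*-KO and 7146 and 6872 in the *Pich*-WT samples, a log2 fold change of −1.74 (standard error 0.11, limma adjusted p = 6.68e-05). The linker histone genes called, *Hist1h1c*, *H1f0* and *H1fx*, were all lower. *Hist1h1e* was not called and had a log2 fold change of 0.29, with both *Pich*-KO samples above both *Pich*-WT samples.

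The calls in the next lists also stand beside 7.58% of all genes tested that were higher and 9.6% that were lower. Whether a list held more calls than other genes read as deeply was not tested. Of 17 genes of histone mRNA synthesis and processing, 3 were higher and 1 lower. *Slbp*, which encodes the stem-loop binding protein, had normalized counts of 5089 and 6353 in the *Pich*-KO and 5167 and 4789 in the *Pich*-WT samples, with a log2 fold change of 0.19 (standard error 0.12, limma adjusted p = 0.341). *Npat*, the transcriptional coactivator of the histone clusters, had 1079 and 970 against 892 and 900, also 0.19 (limma adjusted p = 0.402). *Srrt*, which links the mRNA cap to 3′ end formation, rose by 0.54 (adjusted p = 0.0141), and the helicase gene *Upf1*, which acts in histone mRNA decay, had a log2 fold change of −1.39 (limma adjusted p = 0.00582). Of 19 histone chaperone genes, 12 were higher and 1 lower: *Daxx*, the H3.3 chaperone, had 3792 and 2943 against 1345 and 1318 (limma adjusted p = 0.000508), *Ssrp1*, a subunit of FACT, rose by 0.41 (adjusted p = 0.00543), and *Ubn1*, of the HIRA complex, had a log2 fold change of −0.89 (adjusted p = 0.0141). Of 19 S phase genes, 11 were higher, by up to 0.64 on the log2 scale for *Uhrf1* (limma adjusted p = 0.000952) and by 0.40 for *Mcm6* (adjusted p = 0.00607), and *E2f1* was lower at −1.73 (adjusted p = 0.0105). The medians were 0.39 for the chaperone genes and 0.39 for the S phase genes, beside 0.28 for the clustered histone genes and 0.02 for all genes tested. The median of the clustered genes was −0.26 without *Pich*-KO sample 2. Between *Pich*-KO samples 2 and 1 the median log2 difference was 0.82 for the clustered and 0.09 for the S phase genes.

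Markers of other FL cells differed between the groups in these sorted samples. Limma called all 10 macrophage markers lower in *Pich*-KO, beside 9.6% of all genes tested. Their summed normalized counts were 7219 to 8481 against 57284 to 59233. It called 9 of 10 erythroid markers lower, with sums of 33310 to 36015 against 140585 to 199189. All 4 endothelial, 3 of 6 hepatocyte and 3 of 4 megakaryocyte markers were called lower as well. Their sums were 1195 to 1917 against 8804 to 12753, 2376 to 2879 against 3807 to 4359, and 887 to 907 against 2791 to 3870. The log2 fold change was below 0 for all 10 erythroid, all 6 hepatocyte and all 4 megakaryocyte markers. The 4 lymphoid markers gave 0 limma calls, with sums of 153 to 363 against 189 to 283. None of these lists was at 0 in a sample. Their part in the lower *Hist1h1c*, *Hist3h2ba*, *H1f0* and *H1fx* of the *Pich*-KO samples was not tested.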

How the data were processed

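The authors deposited 1 table with a signal value per gene and sample, made from read counts on genes divided by a size factor per sample. In all 4 samples 100% of these values were whole multiples of 1 step (tolerance 0.1 read), which gave back the reads. The submitters' processing notes name Bowtie 0.12.2 and the builds mm8 and mm9 without a role, while 97.8% of the table's genes had the coordinates of GENCODE M21 on GRCm38. The counter, the strand setting and any poly(A) selection are not given in the sources used here beyond the TruSeq RNA kit. The table's fold changes, p-values and group means by the authors were not used.

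The main test was limma 3.58.1 (R 4.3.3) on log2(normalized count + 1). It covered the 32428 genes whose mean normalized count reached 1, with the prior variance following the mean and Benjamini-Hochberg adjustment over all of them. Alternatives were edgeR 4.0.16 and DESeq2 1.42.0 on the recovered reads, fits without the filter, with a pseudocount of 0.1 or with 10 reads required in every sample, TMM or total-read scaling, no variance trend, a replicate block and leaving out each sample. The scripts were tested on simulated data. The samples held 14703215 to 20933919 reads on genes, and counts of at most 3 reads were taken as the floor. Stem-loops, transcript ends and shared 50-base words came from GENCODE M21 transcripts, promoters from RefSeq.

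Genes named are, per class, the 2 with the highest mean and the largest and smallest called log2 fold change, the highest of *Hist2*, *Hist3* and *Hist4*, *Hist1h1t*, and of each further list the highest and the largest and smallest call. Others were named after their values were seen. The members and lists were chosen with earlier results of these data known.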

Additional observations from a re-analysis of the deposited data

How the results depend on the processing

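Of the clustered genes 4 were called higher and 2 lower. With a pseudocount of 0.1, and without the filter on the mean, the counts were 2 higher and 1 lower, beside 2091 and 2651, and 1840 and 2326, over all genes. DESeq2 called 9 higher and 2 lower, beside 2623 and 3179 over all genes. Without the variance trend there were 0 calls of clustered genes and 0 higher and 0 lower over all genes. With the other alternatives run on all 4 samples (10 reads in every sample, both scalings, edgeR) the clustered counts were within 1.5 times. Leaving out 1 sample gave 0 to 3 clustered genes higher and 0 to 1 lower, and 0 to 548 genes higher and 0 to 1193 lower over all genes. The lone sample of a group is then assumed to vary like the other group. The cause of these changes was not tested, although with a sample left out fewer samples estimate the spread.

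The numbers of the samples did not pair them: the correlation between the groups of the differences between replicates 1 and 2 was 0.012 over 11794 genes. With a replicate block, 10 clustered genes were higher and 2 lower, *Hist1h2bg*, *Hist1h4d* and *Hist1h4i* among the higher, and over all genes 3122 were higher and 3874 lower, beside 2459 and 3113 without it.

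With 1 sample left out, the median log2 fold change of the clustered genes ranged from −0.26 to 0.73. That of the sums ranged from −0.11 to 0.54 over all classes, from 0.18 to 0.81 for H2A, −0.29 to 0.40 for H2B, 0.24 to 1.25 for H3 and 0.076 to 0.94 for H4, with the lowest value in each case without *Pich*-KO sample 2 and the highest without *Pich*-KO sample 1. *Hist2h2be* ranged from −0.50 to 0.15 and *Hist4h4* from −0.31 to 0.69. The 6 called genes kept their direction under every alternative.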
